A study of Arabidopsis thaliana with 14 samples.

Results

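The nuclear photosystem and light-harvesting genes of Arabidopsis thaliana were followed in whole rosettes in which the transcription factor WRKY75 was induced. The set held 48 of the 33602 genes counted in each library, and its members were taken by locus identifier. No measured value entered that rule, although earlier results of these data were known when the members were chosen. It comprised 6 LHCA genes, 8 LHCB1 and LHCB2 genes, 6 LHCB3 to LHCB6 genes, 12 PSA genes, 10 PSB genes, 4 genes of electron transport and 2 genes of the chloroplast ATP synthase. N2102363 and N2102362 are independent lines that overexpress WRKY75 when given estradiol, and each gave 4 RNA-seq libraries of plants sprayed with 50 µM estradiol. Wild-type Col-0 gave 3 libraries of plants sprayed with the same estradiol solution and 3 of plants sprayed with water. Every spray held 0.001% Silwet-L77, a wetting agent. Plants were 3 weeks old, had grown with 12 h of light a day (22 °C in the light, 19 °C in the dark) and were harvested 3 h after the spray. Each library came from a pool of 5 rosettes, so p-values measure the spread between such pools. Lines without estradiol were not analysed here, so carrying the construct and inducing it cannot be told apart. Which promoter drives the construct, and in which cells, is not given in the sources used here.

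Photosynthesis in higher plants runs through a pair of photosystems in the thylakoid membrane of the chloroplast. LHCA proteins form the chlorophyll-binding antenna of photosystem I and LHCB proteins that of photosystem II, while PSA and PSB genes encode further subunits of the photosystems themselves. Plastocyanin and ferredoxin carry electrons at the ends of photosystem I, and the ATP synthase uses the proton gradient built by electron flow. All of these genes lie in the nucleus, are transcribed mainly in green cells and are known to respond to light, to signals from the plastid and to the circadian clock, whereas the reaction-centre proteins are encoded in the plastid.

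Total counts ran from 20456036 to 22605970 per library. WRKY75 ranged from 76.8 to 167 CPM in N2102363 and from 28.2 to 82.1 CPM in N2102362, against 0.627 to 2.69 CPM in Col-0 with estradiol and 0.428 to 1.25 CPM in Col-0 with water. CPM is the count in a library divided by its total, scaled by the trimmed mean of M values (TMM), and brought to a common total. The 8 libraries of the lines thus stood above the 6 of Col-0, in the order that their labels give. Genes of the plastid and mitochondrion took 0.0378% to 0.0534% of the counts, so the libraries say little on transcripts of the organelles. Replicate 4 exists only in the lines, the extraction protocol in the labels names 3 replicates, and the file names of both replicate 4 libraries carry a date that no other file name carries. Replicate number 4 and that date cannot be told apart, and results are given below with and without these libraries. Markers of leaf mesophyll summed to 13799 to 39526 CPM per library, those of guard cells to 91.0 to 149.7 CPM, of root to 20.5 to 67.2 CPM and of flowers to 1.16 to 4.67 CPM.

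The members were among the most abundant transcripts of the rosette. Together they took 9.75% to 12.6% of all counts in N2102363, 8.38% to 13.9% in N2102362, 7.72% to 12.2% in Col-0 with estradiol and 8.87% to 12.0% in Col-0 with water. Per kilobase of RefSeq exon, 31 of the 50 most abundant genes were members. LHCB1.5 stood first of all 19666 genes tested with a mean over the 14 libraries of 6550.4 CPM per kb, and LHCB1.3 second with 6228 CPM per kb. LHCA4 (4896 CPM per kb), LHCA1 (3969.9 CPM per kb), PSBR (3889 CPM per kb), LHCB3 (3336 CPM per kb) and LHCB5 (3316 CPM per kb) followed among the members. At the other end were PETE1 at 152 CPM per kb, LHCA5 at 98.3 CPM per kb, LHCA6 at 57.2 CPM per kb and LHCB4.3 at 30.1 CPM per kb. The weakest of them, LHCB4.3, still ranked 3719th of all genes tested, and all 48 members passed the filter on low counts. Lengths came from RefSeq, whereas counts were made on TAIR10 positions, and 4 of the 48 members have the same positions in both. LHCB1.3 spans 10478005 to 10479048 in TAIR10 but was divided by 1230 RefSeq exon bases. The order of LHCB1.5 and LHCB1.3, and other ranks per kilobase, therefore depend on the gene model.

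**Figure D1:**
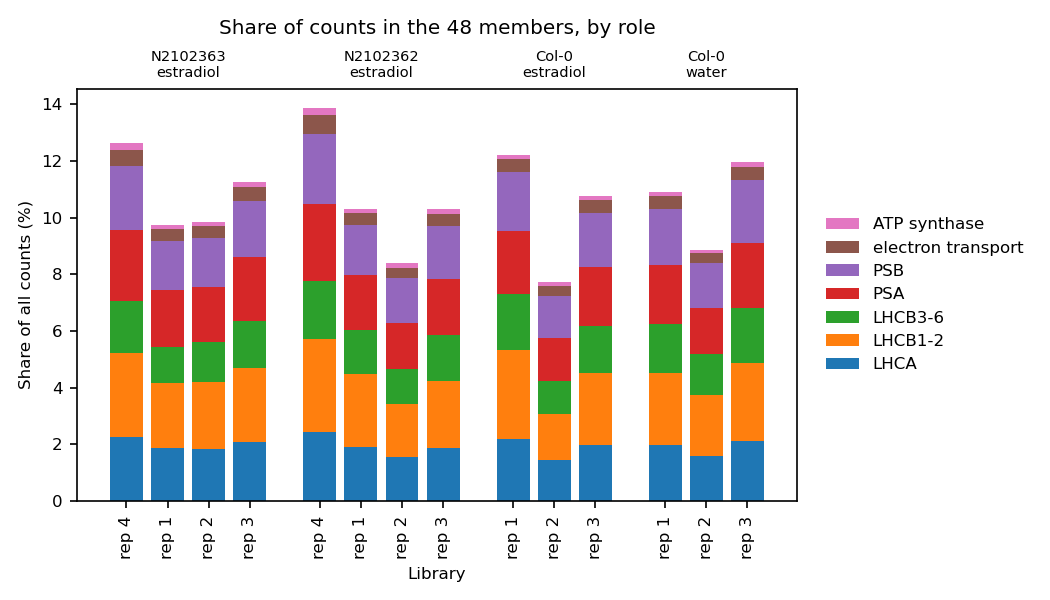
Share of all counts (%) that fell in the 48 members, stacked by role, for each of the 14 libraries, with replicate 4 drawn first in each line. The bars run from 7.72% in Col-0 estradiol replicate 2 to 13.9% in N2102362 replicate 4, and in every bar the LHCB1 and LHCB2 genes make up 21.1% to 25.6% of the member counts.

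The members moved together from library to library. In replicate 2 of N2102362, of Col-0 with estradiol and of Col-0 with water, 48 of 48 members lay below the mean of their own group. In replicate 2 of N2102363, and also in its replicate 1, 47 of 48 did. In replicate 4 of both lines and in Col-0 estradiol replicate 1, 48 of 48 lay above the mean of their own group. Such counts were not made over all genes. The highest of the 14 values was in N2102362 replicate 4 for 37 members, in Col-0 estradiol replicate 1 for 10 and in Col-0 water replicate 3 for 1. The lowest was in Col-0 estradiol replicate 2 for 32 members, in N2102362 replicate 2 for 8, in Col-0 water replicate 2 for 7 and in N2102363 replicate 1 for 1. The edgeR estimate of variation between replicates had a median of 22.9% over the members, against 15.2% over all genes tested and 13.1% over the 5017 genes with a mean CPM of at least that of the lowest member.

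**Figure D2:**
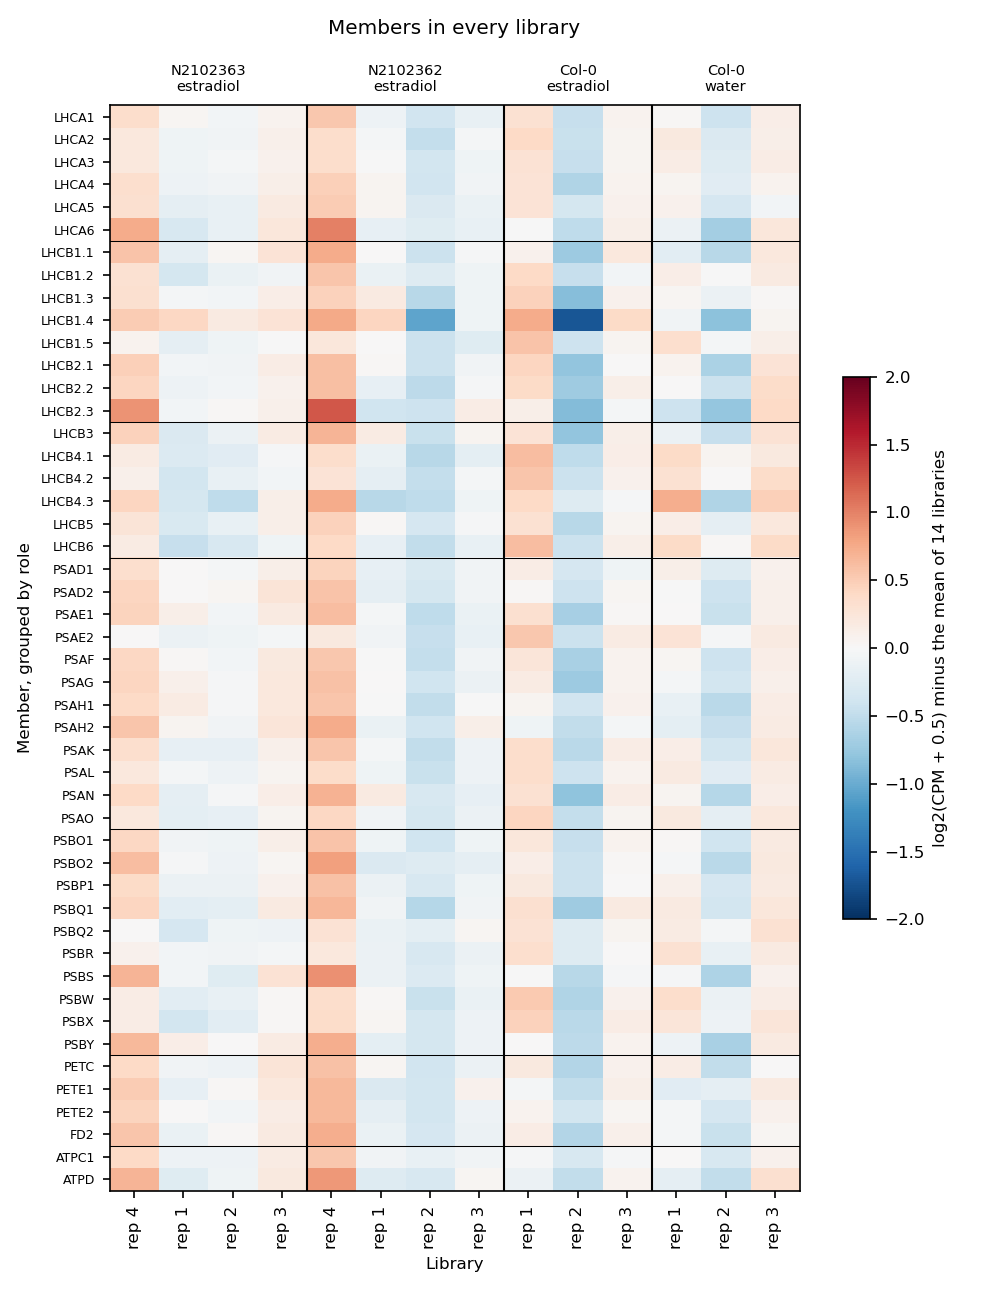
Level of each member in each library as log2(CPM + 0.5) minus the member's mean over the 14 libraries, with members grouped by role down the page and libraries across. The columns of replicate 4 of both lines and of Col-0 estradiol replicate 1 are red through nearly all roles, and those of replicate 2 of N2102362, Col-0 estradiol and Col-0 water are mostly blue.

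Induction of WRKY75 was not accompanied by a detectable change in any of these genes. For both lines averaged and set against the Col-0 estradiol libraries, edgeR called 0 of 48 members at an adjusted p under 0.05, where 0.0356% of all genes tested were called. None had an unadjusted p under 0.05, against 1834 of all 19666 genes, and DESeq2 called 0 members as well. The median log2 fold change was 0.11 over the members and -0.0042 over all genes, with 34 members above 0 and 14 below. Members ran from -0.28 ± 0.23 (SE) for LHCB6 to 0.52 ± 0.39 for LHCB2.3, and the lowest adjusted p was 0.565. The standard errors ran from 0.161 to 0.435 on the log2 scale. No member had its 8 line libraries all above or all below the 3 Col-0 estradiol libraries, where 1.29% of all genes had them all above and 1.13% all below, so the members' count was near that of all genes. In these bulk samples fewer cells of a type and less RNA per cell cannot be told apart.

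Neither line taken alone had a called member against the same 3 Col-0 libraries. In N2102363, 0 of 48 members were called, where 0.0254% of genes were, and the median log2 fold change was 0.13. In N2102362, 0 of 48 were called, where 0.0305% of genes were, and the median was 0.08. N2102363 against N2102362, which differ in their WRKY75 level, gave 0 of 48 called beside 0.00508% of genes. The median was 0.05, with members from -0.13 ± 0.17 (SE) for PSBQ2 to 0.19 ± 0.45 for LHCB1.4. With the replicate number as a block, which pairs these lines, the median was 0.08, and 2 genes were called in place of 1, none of them a member. In these 3 comparisons no member had an unadjusted p under 0.05 and DESeq2 called none. Over all 19666 genes, 2205 in N2102363, 914 in N2102362 and 461 between the lines had such a p. Single libraries moved these medians across 0. For N2102363 against Col-0 the median ran from -0.11, with 16 members above 0, without Col-0 estradiol replicate 2 to 0.30, with 46 above 0, without Col-0 estradiol replicate 1. For N2102362 it ran from -0.14, with 5 members above 0, without its own replicate 4 to 0.25, with 48 above 0, without Col-0 estradiol replicate 1. Between the lines it ran from -0.075, with 4 members above 0, without N2102362 replicate 2 to 0.28, with 47 above 0, without N2102362 replicate 4.

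Estradiol itself, tested in Col-0 against water, called 0 of 48 members and 0% of genes. The median over the members was -0.01 on the log2 scale, 19 members lay above 0 and 29 below, and the values ran from -0.24 ± 0.39 (SE) for LHCB4.3 to 0.36 ± 0.52 for LHCB1.4. No member had an unadjusted p under 0.05, against 310 of all genes, and DESeq2 called 0 members. The sign of this median rested on single libraries. It was -0.20, with 1 of 48 members above 0, without Col-0 estradiol replicate 1 and 0.19, with 47 above 0, without Col-0 estradiol replicate 2.

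Replicate 4 of the lines stood apart from replicates 1 to 3 of the same lines. In a fit with a term for replicate 4, edgeR called 10 of 48 members higher and 0 lower, where 3.58% of all genes tested were called higher, 3.88% lower and 7.46% in either direction. The fold change was above 1 for 48 of 48 members, with a median of 0.56 on the log2 scale, against -0.01 over all genes, and a range from 0.26 ± 0.20 (SE) for PSAE2 to 1.17 ± 0.29 for LHCB2.3. At an unadjusted p under 0.05 there were 34 members, against 5240 of all genes (26.6%). This fit treats the 2 replicate 4 libraries and the 6 others as independent, although same-numbered libraries of the lines varied together. With same-numbered libraries of the lines summed to 4 sets, 1 against 3, edgeR called 0 members and 0 genes, and the 10 members had adjusted p-values of 0.0639 to 0.139. In that fit, chosen after seeing the data, the median was 0.54, 48 of 48 members lay above 0, and 36 members and 4186 genes had an unadjusted p under 0.05. The calls given below for replicate 4, of members and of other genes, are those of the fit to single libraries. Both replicate 4 libraries lay above all 6 libraries of replicates 1 to 3 for 47 members, against 16.8% of all genes, the exception being PSBQ2. Both lay above all 6 Col-0 libraries for 29 members, against 22.0% of all genes.

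The number of called members depended on single libraries, and so did the share of all genes called higher. No member was called without replicate 4 of N2102363 or without replicate 4 of N2102362, where 0% of genes were called higher. Without N2102363 replicate 2 it was also 0, beside 0.326% of genes. It was 1 without N2102362 replicate 1, beside 0.942% of genes. It was 2 without N2102362 replicate 2 (1.46% of genes), N2102362 replicate 3 (1.05%) or N2102363 replicate 1 (1.44%), and 14 without N2102363 replicate 3 (6.17%). A fit of the lines alone called 26 members, beside 6.41% of genes called higher, and DESeq2 called 20, beside 6.67%. With the term fitted in 1 line at a time it was 0 in each line, with a median log2 difference of 0.36 in N2102363 and 0.73 in N2102362. No test of the difference between the lines is given, since each has 1 replicate 4 library. Library totals without TMM shifted the median of all genes in this comparison to -0.11 and that of the members to 0.45, and 48 of 48 members stayed above 0.

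**Figure D3:**
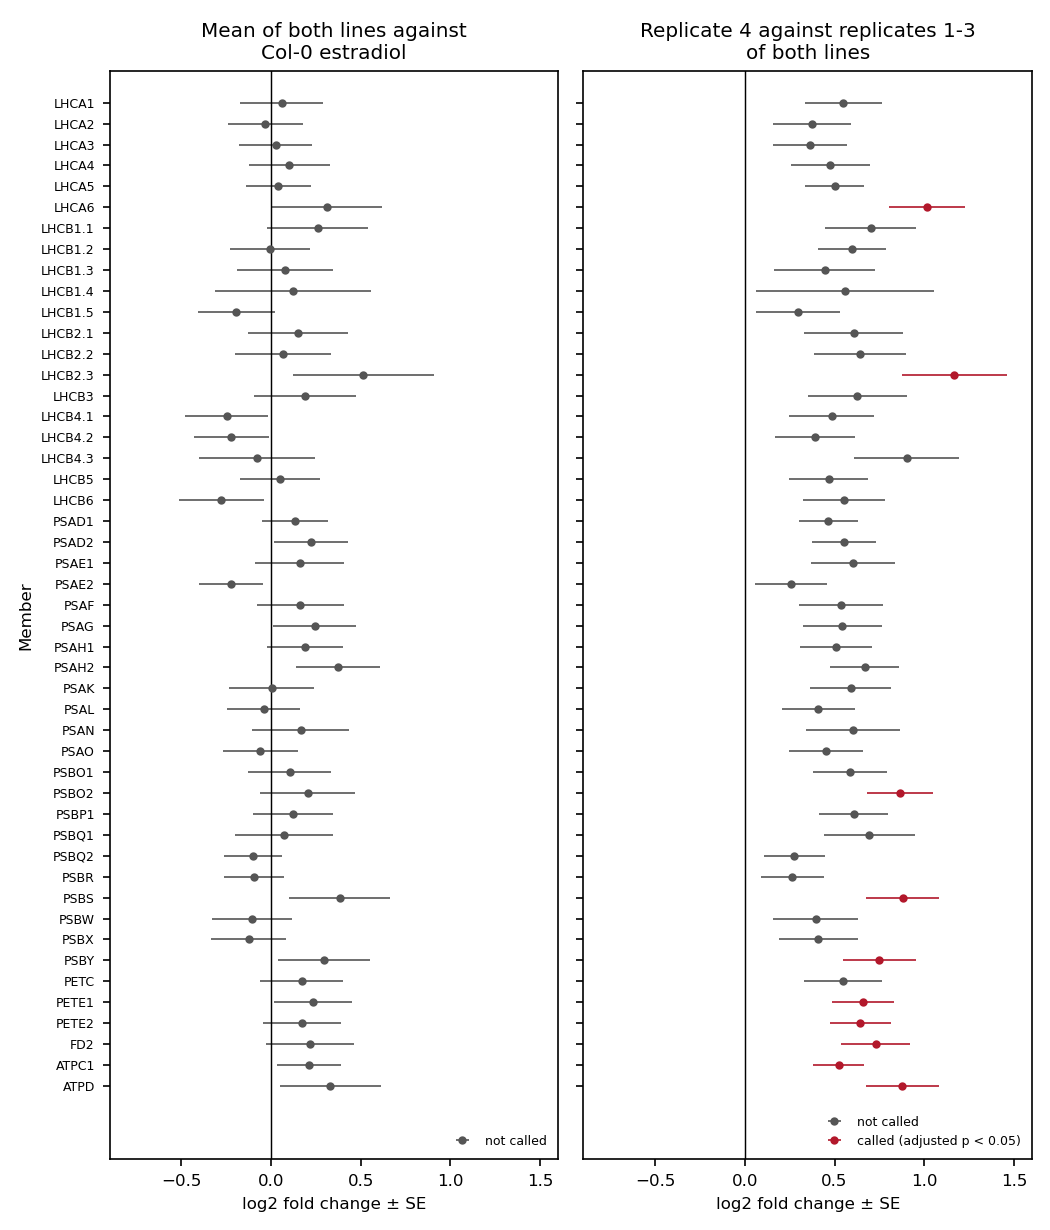
Log2 fold change ± SE of each member, grouped by role, for both lines averaged against Col-0 estradiol (left) and in replicate 4 against replicates 1 to 3 of both lines (right). No member is called on the left, where values scatter on both sides of 0, and 10 members are called on the right, where all 48 values lie above 0.

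LHCB1 and LHCB2 encode the most abundant chlorophyll a/b-binding proteins, which with LHCB3 form the trimeric antenna of photosystem II. The 8 genes took 1.63% to 3.27% of all counts. LHCB1.1, LHCB1.2 and LHCB1.3 lie beside each other on chromosome 1 and are near copies, with transcripts of LHCB1.1 and LHCB1.2 matching LHCB1.3 at 96.1% identity. How reads with several matches were counted is not given in the sources used here, so the split of counts among these 3 is uncertain. LHCB2.1 and LHCB2.2 matched at 94.4%, whereas LHCB2.3 matched LHCB2.1 at 85.9% and LHCB2.2 at 84.8%. The RefSeq transcript of LHCB2.3 also matched AT3G27700, which is not a member, at 100% over 595 bases. The RefSeq model of LHCB2.3 ends at 10257489, beyond the end of the counted TAIR10 model at 10257011. In the deposited positions LHCB2.3 overlaps no other gene. How reads from the matching stretch were counted is likewise not given.

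LHCB2.3 (AT3G27690, chromosome 3, 10255947 to 10257011, plus strand, TAIR10) had the largest value of all members in both comparisons. LHCB2.3 stood at 1138 CPM in replicate 4 and 592, 625 and 661 CPM in replicates 1 to 3 of N2102363, and at 1456 CPM in replicate 4 and 466, 462 and 676 CPM in replicates 1 to 3 of N2102362. Col-0 rosettes held 662, 336 and 597 CPM with estradiol and 460.4, 359 and 811 CPM with water. Both replicate 4 libraries were above the other 12. Its log2 fold change in replicate 4 was 1.17 ± 0.29 (SE, adjusted p = 0.0367), the highest of the members called. Averaged over the lines and against Col-0 it was 0.52 ± 0.39 (SE, adjusted p = 0.611), and without replicate 4 of either line and without Col-0 estradiol replicate 2 it was -0.12. LHCB2.1 and LHCB2.2 had replicate 4 values of 0.61 ± 0.28 (SE) and 0.64 ± 0.26, neither of them called, and the difference between the paralogs was not tested. The ratio of LHCB2.3 to LHCB2.1 counts was 0.554 in N2102363 replicate 4 and 0.649 in N2102362 replicate 4, against 0.297 to 0.479 in the other 12 libraries. This was not particular to the pair. Both replicate 4 libraries also lay outside the other 12 for PSAH2 to PSAH1, PSBQ2 to PSBQ1, LHCB1.1 to LHCB1.3, PSBO2 to PSBO1 and PSAE2 to PSAE1. They did not for PETE1 to PETE2, LHCB1.4 to LHCB1.5, PSAD2 to PSAD1 and LHCB4.1 to LHCB4.2. No ratio was tested.

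The 300 bases that precede the RefSeq gene start (TAIR10.1) are shown for the LHCB2 genes, because these paralogs encode nearly the same protein and 1 of them was called in replicate 4. Capitals mark, on either strand, the G-box CACGTG, the I-box GATAAG and the box CCAAT.
LHCB2.3 (chr3:10255606-10255905, plus strand): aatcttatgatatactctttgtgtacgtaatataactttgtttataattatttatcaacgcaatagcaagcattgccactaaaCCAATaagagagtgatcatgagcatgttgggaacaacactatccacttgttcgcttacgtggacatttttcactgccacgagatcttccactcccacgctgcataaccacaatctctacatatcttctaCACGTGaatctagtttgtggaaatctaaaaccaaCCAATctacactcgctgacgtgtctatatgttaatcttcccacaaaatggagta
LHCB2.1 (chr2:1824481-1824780, minus strand): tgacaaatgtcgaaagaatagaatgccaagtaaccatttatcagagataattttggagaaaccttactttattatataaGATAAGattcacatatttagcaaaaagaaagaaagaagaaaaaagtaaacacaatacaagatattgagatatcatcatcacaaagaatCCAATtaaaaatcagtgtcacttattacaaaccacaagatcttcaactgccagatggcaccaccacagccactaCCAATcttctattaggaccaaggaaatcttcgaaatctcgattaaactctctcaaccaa
LHCB2.2 (chr2:1800473-1800772, minus strand): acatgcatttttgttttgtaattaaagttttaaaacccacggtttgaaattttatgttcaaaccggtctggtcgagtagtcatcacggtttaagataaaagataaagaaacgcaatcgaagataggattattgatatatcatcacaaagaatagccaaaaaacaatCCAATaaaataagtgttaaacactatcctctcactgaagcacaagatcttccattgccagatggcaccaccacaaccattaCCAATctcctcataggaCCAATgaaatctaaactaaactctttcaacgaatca

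The windows of LHCB2.1 and LHCB2.2 shared 195 of 300 bases in an end-to-end alignment, those of LHCB2.3 and LHCB2.1 167, and those of LHCB2.3 and LHCB2.2 169. LHCB2.3 held a G-box and 2 CCAAT-boxes, LHCB2.1 an I-box and 2 CCAAT-boxes, and LHCB2.2 3 CCAAT-boxes. Over the 48 members, 20.8% had a G-box in this window, against 7.92% of the 19558 genes tested that have a window. An I-box stood in 22.9% of members against 14.6% of genes, and a CCAAT-box in 68.8% against 53.4%. The evening element AAATATCT stood in 4.17% of members against 5.83% of genes, and the W-box TTGACC or TTGACT, the motif that WRKY proteins bind, in 20.8% against 31.7%. Of the 10 members called in replicate 4, 2 had a G-box, 1 an I-box, 6 a CCAAT-box, 1 an evening element and 3 a W-box. Motifs were sought on both strands and could overlap, and a match is a description of the letters only.

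LHCB1.5 (AT2G34420, chromosome 2, 14522524 to 14523568, minus strand) and LHCB1.4 (AT2G34430, chromosome 2, 14524756 to 14525763, plus strand) lie head to head, and the ratio of their counts varied widely. LHCB1.5 stood at 7048 CPM in replicate 4 and 5928, 6341 and 6727 CPM in replicates 1 to 3 of N2102363, and at 7869 CPM in replicate 4 and 6791, 5007 and 5699 CPM in replicates 1 to 3 of N2102362. The Col-0 libraries gave 10024, 5033 and 6983 CPM with estradiol and 8522, 6562 and 7300.1 CPM with water. Col-0 estradiol replicate 1 was the highest, N2102362 replicate 2 the lowest and Col-0 estradiol replicate 2 next to it. LHCB1.4 stood at 2693 CPM in replicate 4 and 2521, 2156 and 2301 CPM in replicates 1 to 3 of N2102363, and at 3193 CPM in replicate 4 and 2568, 913 and 1779 CPM in replicates 1 to 3 of N2102362. Its Col-0 values were 3186, 581 and 2469 CPM with estradiol and 1801, 1069 and 1975 CPM with water. LHCB1.4 spread 5.49-fold from the lowest to the highest library, the widest of all members, and its lowest value was in Col-0 estradiol replicate 2. The ratio of LHCB1.4 to LHCB1.5 counts ran from 0.340 to 0.425 in N2102363, from 0.182 to 0.406 in N2102362, from 0.115 to 0.354 in Col-0 with estradiol and from 0.163 to 0.271 in Col-0 with water. Against Col-0, LHCB1.5 had a log2 fold change over both lines of -0.19 ± 0.22 (SE) and LHCB1.4 of 0.12 ± 0.43, and in replicate 4 they had 0.30 ± 0.23 and 0.56 ± 0.50, none of them called. LHCB1.5 overlaps a gene on the opposite strand by 99 bases, and the kit does not mark strand. Its RefSeq transcript also matched AT2G08665, which is not a member, at 100% over all 1045 bases. In the deposited positions, on which counts were made, AT2G08665 does not overlap LHCB1.5. Whether this match affected the counts of LHCB1.5 was not tested.

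**Figure D4:**
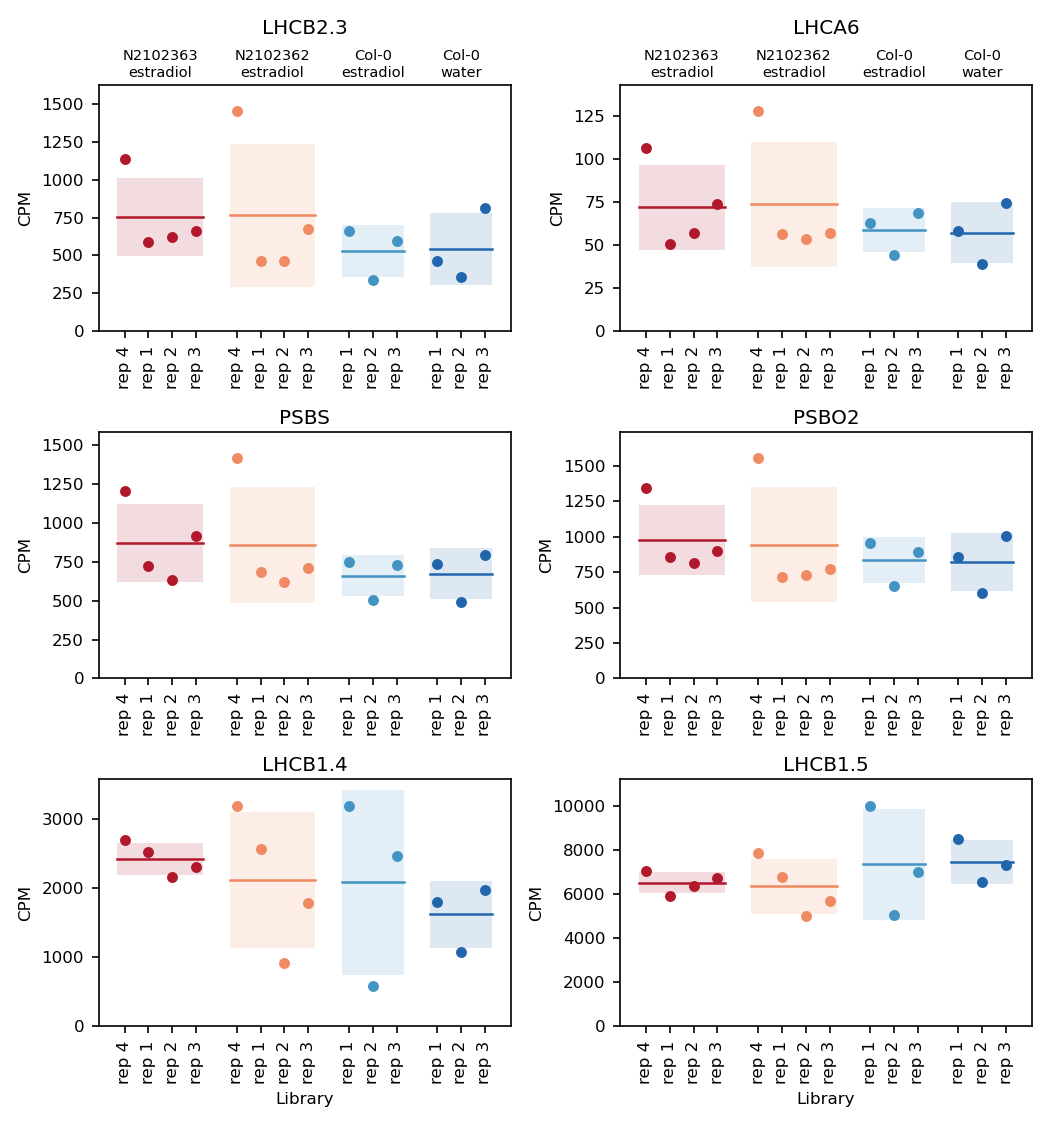
CPM of LHCB2.3, LHCA6, PSBS, PSBO2, LHCB1.4 and LHCB1.5 in every library, with the mean of each group as a line and its SD as a band. In LHCB2.3, LHCA6, PSBS and PSBO2 the replicate 4 libraries stand above the rest of their line, and in LHCB1.4 the Col-0 estradiol libraries spread from 581 to 3186 CPM.

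The RefSeq start sites of LHCB1.4 and LHCB1.5 have 1038 bases between them, and the window before each is shown because the pair is adjacent and its count ratio is the most variable of the paralog pairs compared. Capitals again mark CCAAT-boxes on either strand.
LHCB1.4 (chr2:14524307-14524606, plus strand): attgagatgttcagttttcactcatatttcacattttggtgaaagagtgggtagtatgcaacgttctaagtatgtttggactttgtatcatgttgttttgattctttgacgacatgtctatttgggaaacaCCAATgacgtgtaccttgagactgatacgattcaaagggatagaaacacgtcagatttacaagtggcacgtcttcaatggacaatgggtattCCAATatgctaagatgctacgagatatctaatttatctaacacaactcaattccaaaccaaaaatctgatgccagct
LHCB1.5 (chr2:14523569-14523868, minus strand): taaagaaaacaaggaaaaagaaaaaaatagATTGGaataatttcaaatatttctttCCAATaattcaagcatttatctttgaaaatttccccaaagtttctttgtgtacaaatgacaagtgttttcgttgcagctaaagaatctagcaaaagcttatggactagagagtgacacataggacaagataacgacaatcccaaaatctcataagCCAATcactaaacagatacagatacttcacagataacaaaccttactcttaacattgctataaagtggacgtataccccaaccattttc

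These windows shared 154 of 300 bases. LHCB1.4 held 2 CCAAT-boxes and LHCB1.5 held 3, and neither held a G-box, an I-box, an evening element or a W-box in these letters.

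LHCB3 completes the trimers, and LHCB4, LHCB5 and LHCB6 are the minor antenna proteins that join them to the core of photosystem II. None of the 6 genes was called in any comparison. Over both lines their median log2 fold change was -0.15, with 2 above 0 and 4 below, and in replicate 4 it was 0.52. LHCB3 stood at 5515 CPM in replicate 4 and 3289, 3683 and 4510.4 CPM in replicates 1 to 3 of N2102363, and at 6388 CPM in replicate 4 and 4503, 2956 and 4152 CPM in replicates 1 to 3 of N2102362. Levels in Col-0 were 4859.8, 2318 and 4345 CPM with estradiol and 3679, 2917 and 4891 CPM with water. Col-0 estradiol replicate 2 was the lowest of the 14. LHCB6 stood at 2719.9 CPM in replicate 4 and 1758, 1941 and 2289 CPM in replicates 1 to 3 of N2102363, and at 3209 CPM in replicate 4 and 2177, 1726 and 2196 CPM in replicates 1 to 3 of N2102362. In Col-0 it stood at 3728, 1802 and 2646 CPM with estradiol and 3173, 2481 and 3160.4 CPM with water. Col-0 estradiol replicate 1 was the highest and N2102362 replicate 2 the lowest. Over both lines LHCB3 had a log2 fold change of 0.19 ± 0.28 (SE) and LHCB6 of -0.28 ± 0.23, the lowest of all members. These values turned to -0.074 for LHCB3 without Col-0 estradiol replicate 2 and to 0.017 for LHCB6 without Col-0 estradiol replicate 1. LHCB3 and LHCB6 overlap genes on the opposite strand by 186 and 103 bases.

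LHCA1 to LHCA4 encode the antenna belt of photosystem I, and LHCA5 and LHCA6 are low-abundance relatives that link photosystem I to the NDH complex. The 6 genes took 1.45% to 2.44% of counts. LHCA4 stood at 7857 CPM in replicate 4 and 5821, 5940.1 and 6742 CPM in replicates 1 to 3 of N2102363, and at 8672 CPM in replicate 4 and 6491, 4775 and 5908 CPM in replicates 1 to 3 of N2102362. Col-0 rosettes held 7551, 4116 and 6562 CPM with estradiol and 6469.7, 5317 and 6537 CPM with water. The replicate 4 libraries were the highest of the 14. LHCA2 stood at 3496 CPM in replicate 4 and 2851, 2877 and 3241 CPM in replicates 1 to 3 of N2102363, and at 3837 CPM in replicate 4 and 2949, 2178 and 2937 CPM in replicates 1 to 3 of N2102362. The Col-0 libraries gave 3973, 2222 and 3138 CPM with estradiol and 3450.0, 2475 and 3291 CPM with water. Here Col-0 estradiol replicate 1 was the highest. LHCA4 and LHCA2 had log2 fold changes of 0.10 ± 0.23 (SE) and -0.03 ± 0.21 over both lines and of 0.48 ± 0.22 and 0.37 ± 0.22 in replicate 4, none of them called. LHCA2 matched AT5G28450 at 97.6% over 411 bases, so part of its counts is uncertain.

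LHCA6 (AT1G19150, chromosome 1, 6612749 to 6613972, plus strand, TAIR10) rose in replicate 4. LHCA6 stood at 106 CPM in replicate 4 and 50.7, 56.8 and 73.8 CPM in replicates 1 to 3 of N2102363, and at 128 CPM in replicate 4 and 56.2, 53.4 and 57.3 CPM in replicates 1 to 3 of N2102362. Its Col-0 values were 63.0, 44.4 and 68.7 CPM with estradiol and 58.2, 39.2 and 74.4 CPM with water. Both replicate 4 libraries were above the other 12. The log2 fold change was 1.01 ± 0.21 (SE, adjusted p = 0.0251) in replicate 4 and 0.31 ± 0.31 (SE, adjusted p = 0.695) over both lines, and the value for the lines was -0.019 without replicate 4 of both lines.

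PSA genes encode the small subunits of photosystem I, among them PSAD and PSAE on the stromal side, where ferredoxin docks, PSAF on the lumenal side, where plastocyanin docks, and PSAH beside the site where the mobile antenna binds. None of the 12 was called in any comparison. The median log2 fold change was 0.16 over both lines, with 9 above 0 and 3 below, and 0.54 in replicate 4. PSAF stood at 4670.1 CPM in replicate 4 and 3583, 3370.1 and 4011 CPM in replicates 1 to 3 of N2102363, and at 5093 CPM in replicate 4 and 3486, 2519 and 3351 CPM in replicates 1 to 3 of N2102362. Levels in Col-0 were 4149, 2245 and 3677 CPM with estradiol and 3620.2, 2639 and 3854 CPM with water. Replicate 4 of both lines was highest and Col-0 estradiol replicate 2 lowest. PSAH2 stood at 1436 CPM in replicate 4 and 1024, 934 and 1162 CPM in replicates 1 to 3 of N2102363, and at 1640.2 CPM in replicate 4 and 900.4, 748 and 1070.0 CPM in replicates 1 to 3 of N2102362. In Col-0 it stood at 924, 699.9 and 958 CPM with estradiol and 855, 710.3 and 1096 CPM with water. The replicate 4 libraries again led, and replicates 1 to 3 of the lines overlapped Col-0. PSAE2 stood at 416 CPM in replicate 4 and 383, 388 and 401 CPM in replicates 1 to 3 of N2102363, and at 472 CPM in replicate 4 and 395, 299 and 373 CPM in replicates 1 to 3 of N2102362. Col-0 rosettes held 602, 305 and 461 CPM with estradiol and 500.4, 408 and 467 CPM with water. Here Col-0 estradiol replicate 1 was highest. PSAH2 had the largest log2 fold change of the class over both lines, 0.37 ± 0.23 (SE, adjusted p = 0.565), and PSAE2 the smallest, -0.22 ± 0.18 (SE, adjusted p = 0.625). In replicate 4 PSAH2 had 0.67 ± 0.19 (SE, adjusted p = 0.0536) and PSAE2 0.26 ± 0.20 (SE, adjusted p = 0.442). The ratio of PSAE2 to its paralog PSAE1 was 0.218 in N2102363 replicate 4 and 0.219 in N2102362 replicate 4, the lowest of the 14 libraries, against 0.252 to 0.302 in replicates 1 to 3 of the lines and 0.310 to 0.394 in Col-0. This ratio is given after several paralog pairs were looked at, and in the other pairs the lines overlapped Col-0. It was not tested, and how often other gene pairs separate the lines from Col-0 was not computed. PSAE2 overlaps a gene on the opposite strand by 63 bases and PSAH1 by 266.

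The PSB genes measured here encode the lumenal proteins around the oxygen-evolving complex (PSBO, PSBP, PSBQ, PSBR), small membrane subunits (PSBW, PSBX, PSBY) and PSBS, the sensor of lumen acidity in the dissipation of excess light. They gave 3 called members in replicate 4 and 0 in the other comparisons. PSBR stood at 3204 CPM in replicate 4 and 2911, 2869 and 2955 CPM in replicates 1 to 3 of N2102363, and at 3481 CPM in replicate 4 and 2773, 2419 and 2799 CPM in replicates 1 to 3 of N2102362. The Col-0 libraries gave 3818, 2529.8 and 3035 CPM with estradiol and 3726, 2733 and 3426 CPM with water. Col-0 estradiol replicate 1 and Col-0 water replicate 1 were highest, and the groups overlapped. PSBX stood at 1382 CPM in replicate 4 and 972, 1079 and 1272 CPM in replicates 1 to 3 of N2102363, and at 1609.9 CPM in replicate 4 and 1284, 974 and 1165 CPM in replicates 1 to 3 of N2102362. Its Col-0 values were 1729, 864 and 1385 CPM with estradiol and 1475, 1159.5 and 1478 CPM with water. This gene was again highest in Col-0 estradiol replicate 1. PSBR had a log2 fold change over both lines of -0.10 ± 0.17 (SE) and PSBX of -0.12 ± 0.21, neither of them called.

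PSBS, PSBO2 and PSBY rose in replicate 4. PSBS is AT1G44575, chromosome 1, 16871696 to 16873383, plus strand, and PSBO2 is AT3G50820, chromosome 3, 18890876 to 18892426, minus strand. PSBS stood at 1202 CPM in replicate 4 and 723, 634 and 915 CPM in replicates 1 to 3 of N2102363, and at 1415 CPM in replicate 4 and 687, 617 and 707 CPM in replicates 1 to 3 of N2102362. Levels in Col-0 were 746, 506 and 732 CPM with estradiol and 738, 489 and 793 CPM with water. Both replicate 4 libraries were above the other 12, and so they were for PSBO2, the second gene of the manganese-stabilising protein. PSBO2 stood at 1343 CPM in replicate 4 and 859, 812 and 898 CPM in replicates 1 to 3 of N2102363, and at 1553 CPM in replicate 4 and 718, 732 and 772 CPM in replicates 1 to 3 of N2102362. In Col-0 it stood at 958, 650.0 and 893 CPM with estradiol and 858, 604 and 1003 CPM with water. The same held for PSBY. PSBY stood at 1512 CPM in replicate 4 and 1049.9, 967 and 1078 CPM in replicates 1 to 3 of N2102363, and at 1583 CPM in replicate 4 and 838, 752 and 896 CPM in replicates 1 to 3 of N2102362. Col-0 rosettes held 963, 671 and 1011 CPM with estradiol and 897, 610.3 and 1093 CPM with water. Log2 fold changes in replicate 4 were 0.88 ± 0.20 (SE, adjusted p = 0.0303) for PSBS, 0.87 ± 0.18 (SE, adjusted p = 0.0251) for PSBO2 and 0.75 ± 0.20 (SE, adjusted p = 0.0445) for PSBY. Over both lines they were 0.38 ± 0.28 (SE, adjusted p = 0.605), 0.20 ± 0.27 (SE, adjusted p = 0.767) and 0.30 ± 0.26 (SE, adjusted p = 0.648). The ratio of PSBO2 to PSBO1 counts was 0.260 in N2102363 replicate 4 and 0.270 in N2102362 replicate 4, against 0.196 to 0.247 in the other 12 libraries.

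The genes of electron transport encode the Rieske protein of the cytochrome b6f complex (PETC), the plastocyanins (PETE1 and PETE2) and the main leaf ferredoxin (FD2). PETE1, PETE2 and FD2 rose in replicate 4, and PETC was not called. PETE2 stood at 3174 CPM in replicate 4 and 2332, 2234 and 2576 CPM in replicates 1 to 3 of N2102363, and at 3639.9 CPM in replicate 4 and 2064, 1815 and 2165 CPM in replicates 1 to 3 of N2102362. The Col-0 libraries gave 2446, 1809 and 2391 CPM with estradiol and 2255, 1852 and 2483 CPM with water. PETE2 is the major plastocyanin, and its counts exceeded those of PETE1 in every library. PETE1 stood at 223 CPM in replicate 4 and 139, 159 and 180.1 CPM in replicates 1 to 3 of N2102363, and at 244 CPM in replicate 4 and 127, 121 and 166 CPM in replicates 1 to 3 of N2102362. Its Col-0 values were 153, 111 and 169 CPM with estradiol and 133, 137 and 176 CPM with water. Both plastocyanins were highest in replicate 4. FD2 stood at 1321 CPM in replicate 4 and 821, 917 and 1019 CPM in replicates 1 to 3 of N2102363, and at 1491 CPM in replicate 4 and 822, 716 and 825 CPM in replicates 1 to 3 of N2102362. Levels in Col-0 were 993, 599.6 and 966 CPM with estradiol and 876, 661 and 927 CPM with water. FD2 had its highest values there too. PETC stood at 1422 CPM in replicate 4 and 1028, 1012 and 1293 CPM in replicates 1 to 3 of N2102363, and at 1624 CPM in replicate 4 and 1114, 833 and 1002 CPM in replicates 1 to 3 of N2102362. In Col-0 it stood at 1242, 723 and 1143 CPM with estradiol and 1194, 772 and 1088 CPM with water. PETC was highest in replicate 4, and replicates 1 to 3 of the lines overlapped Col-0. In replicate 4 the log2 fold change was 0.64 ± 0.17 (SE, adjusted p = 0.0425) for PETE2, 0.66 ± 0.17 (SE, adjusted p = 0.0427) for PETE1, 0.73 ± 0.19 (SE, adjusted p = 0.0427) for FD2 and 0.55 ± 0.22 (SE, adjusted p = 0.135) for PETC. PETE1 lost its call with library totals in place of TMM (adjusted p = 0.0570) and PETE2 with no filter on low counts (adjusted p = 0.0548). With both lines averaged, the fold change against Col-0 on the log2 scale was 0.17 for PETE2, 0.23 for PETE1, 0.22 for FD2 and 0.17 for PETC. The ratio of PETE1 to PETE2 counts ran from 0.0588 to 0.0765 over all libraries.

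ATPC1 and ATPD encode the gamma and delta subunits of the chloroplast ATP synthase, and both rose in replicate 4. ATPC1 stood at 1309 CPM in replicate 4 and 927, 918 and 1108 CPM in replicates 1 to 3 of N2102363, and at 1434 CPM in replicate 4 and 941, 895 and 939 CPM in replicates 1 to 3 of N2102362. Col-0 rosettes held 975, 796 and 976 CPM with estradiol and 995, 792 and 1048 CPM with water. The replicate 4 libraries lay above the other 12. ATPD stood at 979 CPM in replicate 4 and 519.8, 578 and 704 CPM in replicates 1 to 3 of N2102363, and at 1122 CPM in replicate 4 and 515, 492 and 629 CPM in replicates 1 to 3 of N2102362. The Col-0 libraries gave 569, 437 and 646 CPM with estradiol and 544, 438 and 762 CPM with water. The same order held for ATPD. Replicate 4 gave a log2 fold change of 0.52 ± 0.14 (SE, adjusted p = 0.0443) for ATPC1 and 0.88 ± 0.20 (SE, adjusted p = 0.0308) for ATPD. ATPC1 lost its call with library totals in place of TMM (adjusted p = 0.0590) and with no filter on low counts (adjusted p = 0.0599). Over both lines the values were 0.21 ± 0.18 (SE, adjusted p = 0.643) and 0.33 ± 0.28 (SE, adjusted p = 0.642).

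Related genes outside the set moved in replicate 4 as well in the fit to single libraries, and none of the genes in the lists described here was called in the other 5 comparisons. Of 24 genes of chlorophyll synthesis, 11 rose and 0 fell in replicate 4, with a list median of 0.51 on the log2 scale. With their log2 fold change ± SE, they included CHLH, a subunit of magnesium chelatase (0.94 ± 0.21), its activator GUN4 (0.88 ± 0.22), the divinyl reductase DVR (1.05 ± 0.23) and CAO, which makes chlorophyll b (0.70 ± 0.18). Of 22 genes tested for photosystem assembly and regulation, 5 rose and 0 fell (median 0.37), the largest being the photosystem II factor PSB28 at 1.13 ± 0.17 (SE, adjusted p = 0.00979). Of 16 other nuclear thylakoid genes, 4 rose and 0 fell (median 0.54), among them the minor ferredoxin FD1 at 0.98 ± 0.22 (SE, adjusted p = 0.0271). Of 10 plastid-encoded photosystem genes, 0 were called, with a median of 0.03 and summed levels of 155 to 181 CPM in replicate 4 against 133 to 218 CPM in replicates 1 to 3. For comparison, 3.58% of all genes were called higher in replicate 4 and the median of all genes was -0.01.

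Genes of the circadian clock moved strongly in the same libraries. Of 12 clock genes, 4 rose in replicate 4 and 5 fell. Genes known to peak around dawn were among those that rose. LHY stood at 19.7 CPM in replicate 4 of N2102363 and 22.7 CPM in replicate 4 of N2102362, against 7.79, 6.17 and 6.14 CPM in replicates 1 to 3 of N2102363 and 5.59, 6.05 and 5.29 CPM in those of N2102362, a log2 fold change of 1.79 ± 0.22 (SE, adjusted p = 0.00750). CCA1 had 1.28 ± 0.25 (SE, adjusted p = 0.0226), RVE1 1.44 ± 0.30 (SE, adjusted p = 0.0251) and LNK2 0.87 ± 0.18 (SE, adjusted p = 0.0251). Genes known to peak later in the day or in the evening fell. PRR5 stood at 11.4 CPM in replicate 4 of N2102363 and 8.74 CPM in replicate 4 of N2102362, against 78.4, 70.4 and 44.4 CPM in replicates 1 to 3 of N2102363 and 91.4, 47.7 and 45.0 CPM in those of N2102362, a log2 fold change of -2.65 ± 0.57 (SE, adjusted p = 0.0262). GI had -0.95 ± 0.13 (SE, adjusted p = 0.00848), TOC1 -0.98 ± 0.21 (SE, adjusted p = 0.0259), LUX -0.96 ± 0.25 (SE, adjusted p = 0.0393) and ELF4 -3.92 ± 0.84 (SE, adjusted p = 0.0251). ELF4 lay at the floor, at 0.0502 CPM in replicate 4 of N2102363 and 0.0514 CPM in that of N2102362. Each of these values equals 1 count. Replicates 1 to 3 held 0.705, 1.07 and 0.918 CPM of ELF4 in N2102363 and 1.17, 0.677 and 0.608 CPM in N2102362. In Col-0, LHY ranged from 4.38 to 6.54 CPM with estradiol and from 3.19 to 6.95 CPM with water. The hour of harvest of each replicate is not given in the sources used here. What part the clock genes had in the member values was not tested.

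Cell-type markers also differed in replicate 4. All 8 leaf mesophyll markers lay above 0 and 7 were called, led by the carbonic anhydrase CA1 at 1.42 ± 0.34 (SE, adjusted p = 0.0328). Their summed level was 34187 to 39526 CPM in replicate 4 against 17981 to 24693 CPM in replicates 1 to 3, and 13799 to 22336 CPM in Col-0. Of 5 guard cell markers 0 were called, with sums of 122 to 149.7 CPM in replicate 4 against 99.1 to 131 CPM. Of 5 dividing cell markers 0 were called, with sums of 46.9 to 60.3 CPM against 22.1 to 54.7 CPM, and of 4 vascular markers 0 were called, with sums of 240.1 to 240.8 CPM against 217 to 254 CPM. Of 3 root markers 1 passed the filter, PYK10, and it was called at 0.82 ± 0.22 (SE, adjusted p = 0.0443), and of 3 floral markers tested AG was called higher, with a floral sum of 2.78 to 4.67 CPM against 1.54 to 3.57 CPM. No marker was at 0 in every library. Mesophyll markers, like the members, are genes of photosynthetic cells, and the part of cell composition in the member values was not tested.

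**Figure D5:**
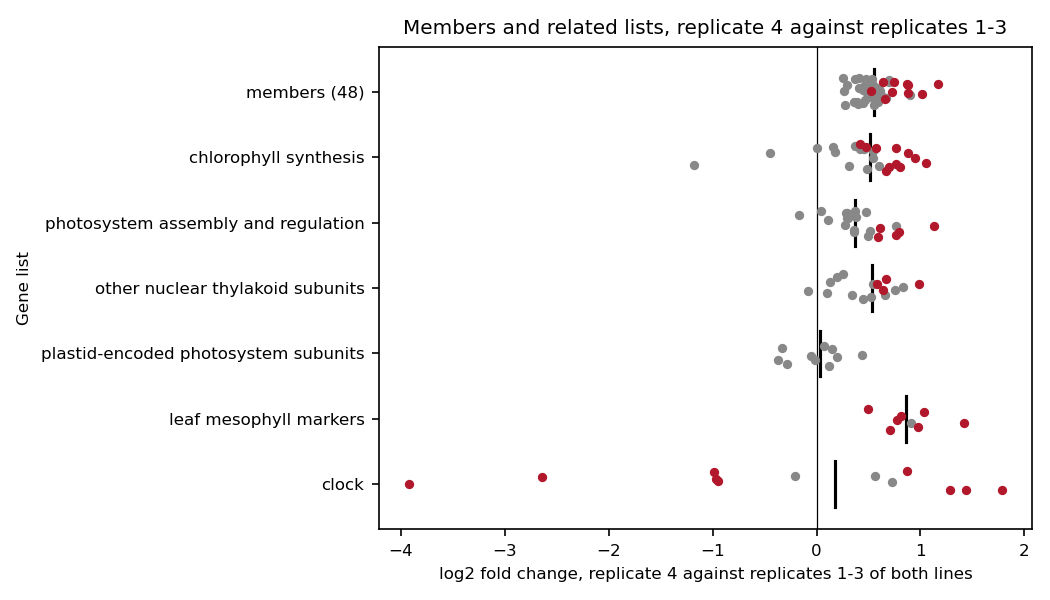
Log2 fold change in replicate 4 against replicates 1 to 3 of both lines for the 48 members and for related gene lists, 1 point per gene, red where called, grey where not, with a bar at each list's median. Members, chlorophyll synthesis and mesophyll markers lie mostly above 0, plastid-encoded genes centre near 0, and clock genes split into 4 called above 0 and 5 called below.

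Without replicate 4 the member medians of the lines against Col-0 were lower. Over both lines, set against Col-0 estradiol, the median was -0.05 without replicate 4 of both lines, against 0.11 with it. It was 0.015 in N2102363, against 0.13 with replicate 4, and -0.14 in N2102362, where 5 of 48 members lay above 0, against 0.08. Leaving out Col-0 estradiol replicate 2 as well gave -0.26 over both lines, with 1 of 48 members above 0, and 9 members and 1533 of all genes had an unadjusted p under 0.05. Leaving out 1 library at a time moved the median between -0.12, without Col-0 estradiol replicate 2, and 0.26, without Col-0 estradiol replicate 1. Under none of these was a member called.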

How the data were processed

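The authors deposited unnormalized counts, 1 whole number for each gene and library, for 14 libraries made with Illumina TruSeq RNA v2, a kit that does not mark strand. Per the submitters' processing notes, the tools were FastQC, TopHat2, SAMtools and HTSeq, and the build TAIR10. Versions, counting mode and the handling of reads with several matches are not given in the sources used here. File names of the line libraries, and of no Col-0 library, hold the word combined, with no explanation. Total counts ran from 20456036 to 22605970, and for the members counting error was small beside the spread between pools.

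Samples were grouped by title. A single model over the 14 libraries was fitted with edgeR 4.0.16 (R 4.3.3; filterByExpr with a minimum count of 10, TMM, robust quasi-likelihood F test, Benjamini-Hochberg adjustment over the 19666 genes kept of 33602, threshold 0.05). The groups formed the terms, and a term for replicate 4 was added for that comparison. The steps were also run on simulated data in which genes varied independently, unlike the members, and no result here rests on that run. Levels per kilobase used the exon length of RefSeq TAIR10.1, and near copies were sought among its transcripts with BLAST 2.17.0 (95% identity over at least 100 bases). In this search 13 members had a match, most of them neighbours with overlapping transcripts. Promoter windows of 300 bases came from the same assembly, and gene positions from the deposited files. In those positions 9 members overlap a gene on the opposite strand.

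Members and gene lists were chosen with earlier results of these data known. All members could be named. Full values are given for the member of each role with the highest level per kilobase, those with the largest and smallest log2 fold change in the mean of the lines, and every member called. LHCB1.4 was added after its values were seen. Alternatives were DESeq2 1.42.0, other scalings and filters, other reference groups, summed near copies, a replicate block and libraries left out. As a check of pairing, deviations from group means were correlated between same-numbered libraries. N2102363 and N2102362 correlated at 0.224 to 0.731. Col-0 with estradiol correlated at 0.0806 to 0.228 with N2102363 and at 0.0898 to 0.562 with N2102362, and the Col-0 groups at 0.0630 to 0.522. N2102362 and Col-0 with water correlated at 0.112 to 0.208, and N2102363 and Col-0 with water at 0.0845 to 0.402. Libraries of N2102363 were each highest with their own number in N2102362, in Col-0 with estradiol and in Col-0 with water. So were those of N2102362 in Col-0 with water. N2102362 replicate 1 was highest with Col-0 estradiol replicate 3 instead, and Col-0 estradiol replicate 3 with Col-0 water replicate 2. By the threshold of 0.1 for every pair, the numbers pair the lines with each other and N2102362 with Col-0 water. No pair of libraries in a group held the same counts within sampling noise.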

Additional observations from a re-analysis of the deposited data

Results flagged for a closer look

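In groups of 4 libraries, a library was set apart by Dixon's test when its gap to the nearest of the others was large beside the range of the group. Of 96 tests of a member in a line, 8 set a library apart (8.33%), against 5.85% of such tests over all genes, and chance does so in about 1 of 20 tests. The share of the members was thus near that of all genes. In each of the 8 the library was replicate 4 and its value was high, which held in 1.84% of the tests over all genes. In N2102362 replicate 4, LHCA6 stood at 128 CPM against 53.4 to 57.3 CPM in the other 3 libraries of the line. LHCB1.2 stood there at 4161 CPM against 2374 to 2668 CPM, and PSBO2 at 1553 CPM against 718 to 772 CPM. PSBS was at 1415 CPM against 617 to 707 CPM, FD2 at 1491 CPM against 716 to 825 CPM, and ATPC1 at 1434 CPM against 895 to 941 CPM. WRKY75 itself was set apart in the same library, at 82.1 CPM against 28.2 to 30.7 CPM. In N2102363 replicate 4, LHCB2.3 stood at 1138 CPM against 592 to 661 CPM and PSBO2 at 1343 CPM against 812 to 898 CPM. Members share their library, so these tests are not independent of each other.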

How the results depend on the processing

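Of 878 values recomputed under 28 settings, 726 kept their direction and their side of the threshold, or stayed within the spread between replicates (1 SD of 0.334 for the median of the members) or within 1.5 times the count. This rule is loose. A median that changed sign could count as kept, as when 0.112 over both lines became -0.116 without Col-0 estradiol replicate 2. Counts of 0 called members that stayed at 0 were kept as well, so the total is no measure of robustness. In the 5 comparisons other than replicate 4, the number of members called was 0 under every setting run. With a replicate block it was also 0, and the median of the members became -0.02 in the mean of the lines, -0.07 in N2102362, 0.01 in N2102363, -0.03 for estradiol in Col-0 and 0.08 for N2102363 against N2102362. For replicate 4 a block could not be a term, since the number is what is compared, and same-numbered libraries of the lines were summed to 4 sets in its place. This replicate block called 0 members, with a median of 0.54.

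The 10 members called in replicate 4 became 26 in a fit of the lines alone and 20 with DESeq2, and 0 to 14 when 1 library was left out. With 1 replicate 4 library left out, the lone one is assumed to vary like the other groups. The term fitted in N2102362 alone or in N2102363 alone called 0 members. The summed fit, these fits in 1 line, and leaving out Col-0 estradiol replicate 2 together with replicate 4 of both lines, were chosen after seeing the data.

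Over both lines against Col-0 with estradiol, single members changed sign when 1 library was left out. The lowest log2 fold change came without Col-0 estradiol replicate 2 and the highest without Col-0 estradiol replicate 1. They ran from -0.22 to 0.18 for LHCA2, from -0.41 to 0.097 for LHCB1.5, from -0.074 to 0.39 for LHCB3, from -0.50 to 0.017 for LHCB6, from -0.44 to 0.029 for PSAE2, from -0.36 to 0.11 for PSBX and from -0.033 to 0.32 for PETC. LHCA2 also turned to 0.030 without N2102362 replicate 2, and LHCA6 to -0.019 without replicate 4 of both lines. Without those libraries and Col-0 estradiol replicate 2, the median was -0.26, and the values were -0.18 for LHCA6, -0.12 for LHCB2.3, -0.26 for LHCB3, -0.051 for PSBS, -0.12 for PETE1, -0.19 for PETC, -0.084 for ATPD and -0.030 for ATPC1. None of these values was called, and the cause was not tested.

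Counts of called genes over all genes moved as well. Over both lines 7 became 127 against both Col-0 groups together, 11 against water alone and 27 with DESeq2. In N2102362 6 became 2 in a fit of the compared groups and 11 with DESeq2. In N2102363 5 became 2, 37 with DESeq2, 27 against water and 8 without Col-0 estradiol replicate 3. For N2102363 against N2102362 1 became 2 with the block, 2 without N2102362 replicate 4 and 4 with DESeq2. For replicate 4, 1468 became 2457 in a fit of the lines alone, 2635 with DESeq2, 0 in either line alone or with the summed sets, and 0 to 2394 with 1 library left out.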
